A study of Homo sapiens with 6 samples.

Results

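The integrated stress response genes examined here are 10 transcripts downstream of the translation factor eIF2, chosen by gene name from a table of 58735 genes: the transcription factors ATF4, ATF3, DDIT3 (which encodes CHOP) and CEBPB, and the effector targets CHAC1, TRIB3, ASNS, SESN2, DDIT4 and PPP1R15A. They were measured by RNA-seq of poly-A enriched RNA in A375 cells, an established human malignant melanoma line. One group of libraries is labelled PAL, for lactated Ringer's solution treated with low-temperature plasma, and the other is labelled control, with 3 libraries in each. The sources used here state no dose, exposure time, plasma setting or control solution. The column headers of the PAL libraries carry the number 64, which the labels do not explain. The sources also do not say whether the replicates were separate cultures. The p-values below thus speak only of library-to-library spread and may reflect technical variation alone. All libraries share the same line, and no other genotype or treatment is labelled.

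In the integrated stress response, kinases that sense endoplasmic reticulum stress, amino acid shortage, viral RNA or heme and mitochondrial stress phosphorylate eIF2, which lowers general translation while the ATF4 mRNA is translated more efficiently through its upstream open reading frames. ATF4 protein then pairs with C/EBP factors on composite DNA elements and raises transcripts for amino acid supply, for further factors such as CHOP and ATF3, and for PPP1R15A, which ends the response by returning phosphatase to eIF2. Since ATF4 is set largely in translation, its mRNA level is not a measure of its protein, and no protein was measured in the data used here. In melanoma cells the pathway is known for its links to nutrient stress and to invasive cell states.

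RefSeq promoter windows, which run from 250 bases before to 50 bases after a start site (build GRCh38.p14), were found for all 10 genes. Stretches of them are shown where a searched motif was matched. The C/EBP-ATF composite core TGATGNAA, searched on both strands, occurred in windows of 3 of the 10 genes, CHAC1, ATF3 and ASNS, and in 4.46% of 27305 RefSeq genes. The cAMP response element TGACGTCA, to which ATF family dimers bind, occurred in PPP1R15A and in 2.25% of all genes, and the AP-1 letters TGANTCA in DDIT3 and in 9.37% of all genes. No window of the 10 genes held the endoplasmic reticulum stress element (present in 0.0916% of all genes) or the heat shock element (0.608%), and ATF4, CEBPB, TRIB3, SESN2 and DDIT4 held none of the 5 motifs in these windows. No match overlapped another, and a match is only a match of letters. The stretches below carry the matched letters in capitals. The first and the second are the parts of the PPP1R15A and ATF3 windows before any annotated exon, and the others are 30-base stretches around the match. In the GENCODE 29 annotation all 30 bases of the CHAC1 and ASNS stretches lie within exons, since distances here are counted from RefSeq starts. Of the DDIT3 stretch, 7 bases lie within exons, annotated on the opposite strand only.
PPP1R15A (chr19:48872171-48872391, plus strand, match 58 bases before the start): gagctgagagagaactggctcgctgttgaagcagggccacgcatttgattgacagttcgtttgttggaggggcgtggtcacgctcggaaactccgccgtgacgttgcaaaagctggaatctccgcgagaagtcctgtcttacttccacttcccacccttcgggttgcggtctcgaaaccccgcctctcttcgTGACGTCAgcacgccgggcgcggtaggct
ATF3 (chr1:212565157-212565333, plus strand, match 191 bases before the upstream of its RefSeq starts): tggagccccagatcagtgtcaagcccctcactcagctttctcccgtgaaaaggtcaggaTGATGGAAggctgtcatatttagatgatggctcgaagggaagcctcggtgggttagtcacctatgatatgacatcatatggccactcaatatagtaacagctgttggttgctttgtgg
CHAC1 (chr15:40953251-40953280, plus strand, core on the opposite strand, 209 bases before the start): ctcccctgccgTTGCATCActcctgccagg
ASNS (chr7:97872458-97872487, minus strand, match 68 bases before the start): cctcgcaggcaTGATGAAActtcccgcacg
DDIT3 (chr12:57520737-57520766, minus strand, match 238 bases before the nearer of its RefSeq starts): gcgcgcgcgcaTGACTCAcccacctcctcc

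The deposited values are FPKM, reads scaled by gene length and library size, and whole reads could be recovered from them. Assigned reads came to 16053009 to 17711389 in PAL libraries and 15064971 to 16081733 in control libraries. Genes at 1 FPKM or more in at least 3 libraries were tested with limma, 12258 in all, and each fold change below is a difference of mean log2(FPKM + 1), PAL minus control. The added 1 makes the change of a weakly expressed gene look smaller than it is. Of these, 14.5% were called lower in PAL and 11.4% higher at an adjusted p below 0.05, 25.9% together. The share of rises among the calls was 44.0% with the deposited scaling, 69.7% as TPM and 73.3% with plain read totals. The inducible HSP70 gene HSPA6 had the most negative fold change of all tested genes and averaged 40.4 ± 28.6 FPKM in PAL and 1882 ± 171 FPKM in control (SD, n = 3 each). HSPA1A, another inducible HSP70 gene, ranked 2 by fold change and averaged 65.3 ± 26.1 FPKM in PAL and 1386 ± 25.4 FPKM in control. Falls and rises below are PAL relative to control, and do not say which group is unstressed. The part of these HSP70 differences in the results below was not tested. The lineage factor SOX10 averaged 107.6 FPKM in PAL and 88.1 FPKM in control, and was called higher in PAL. Of the other 4 tested melanocyte and melanoma markers, the calcium-binding protein S100B was called lower, at 4.03 ± 0.18 FPKM in PAL and 5.18 ± 0.57 FPKM in control (limma adjusted p = 0.030), and MITF, S100A1 and CSPG4 did not pass. The 10 markers of this list summed to 168.2 to 169.1 FPKM in PAL libraries and 144.9 to 149.9 FPKM in control libraries, most of it SOX10 and CSPG4. The pigment genes PMEL, MLANA, TYR and DCT were below 1 FPKM, with TYR at 0 in every library. Summed markers of keratinocytes ran from 30.8 to 33.4 FPKM in PAL and 31.5 to 36.4 FPKM in control with KRT1 and DSG3 at 0, and those of fibroblasts from 3.32 to 4.69 FPKM in PAL and 4.34 to 4.82 FPKM in control. In bulk RNA, fewer cells with a transcript and less transcript per cell cannot be told apart.

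Of the 9 integrated stress response genes that were tested, 6 fell in PAL: ATF3, DDIT3 and CEBPB among the factors and CHAC1, PPP1R15A and SESN2 among the effectors. ATF4 itself, TRIB3 and DDIT4 had negative fold changes that did not pass, and ASNS was below the filter. The share called lower over all tested genes was 14.5%. In 5 of the 9 the fold change was -1 or less on the log2 scale, which 1.58% of all tested genes reached as falls, and in 3 it was -2 or less, against 0.326%. Every PAL library lay below every control library for 7 of the 9, and for 23.6% of all tested genes. For 0 of the 9 did every PAL library lie above every control library, as 21.4% of all tested genes did.

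**Figure D1:**
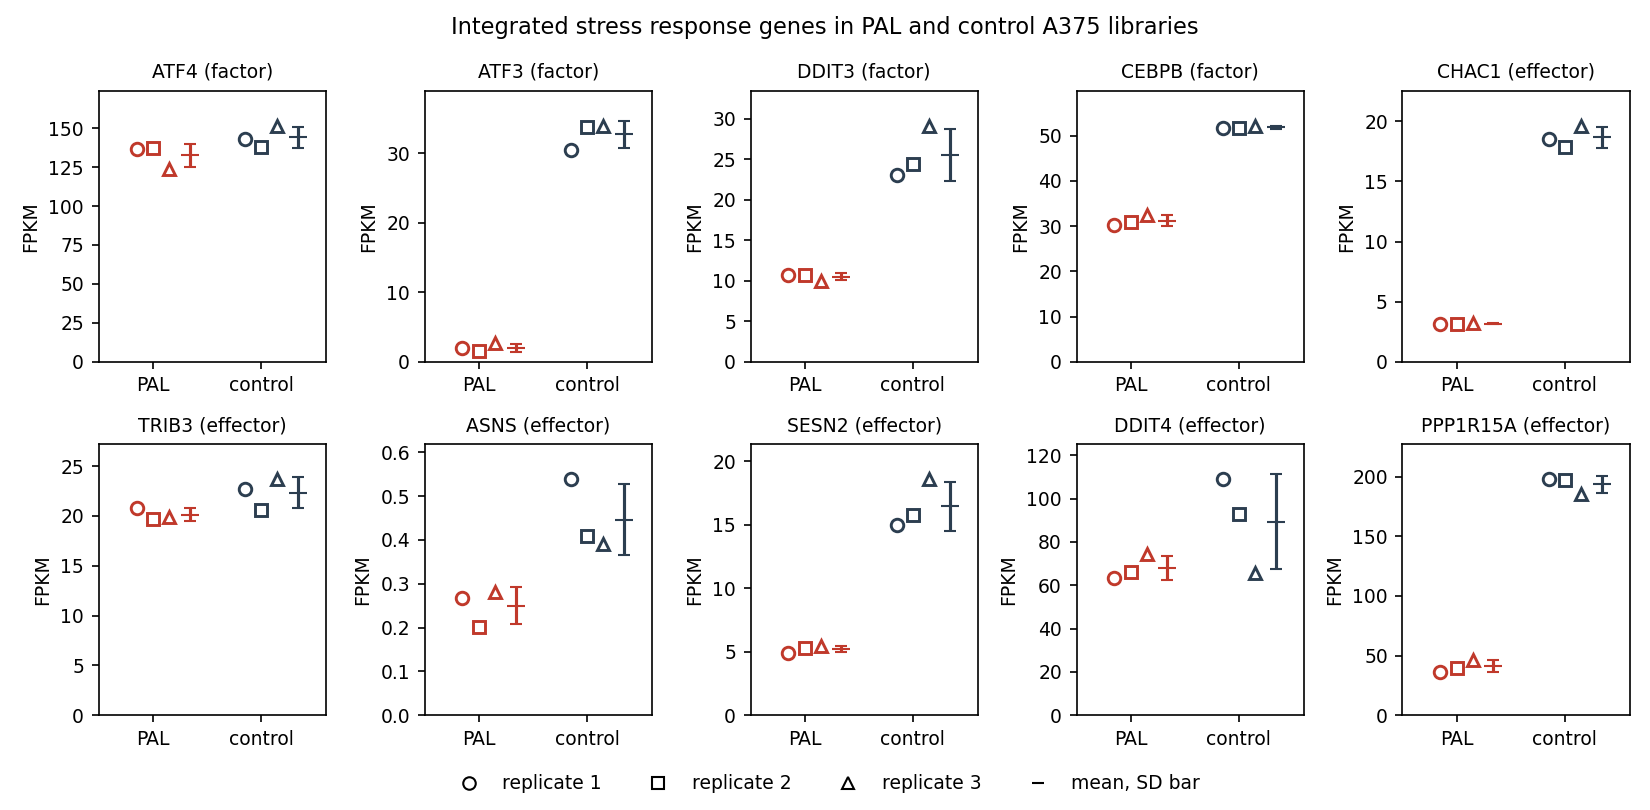
FPKM of the 10 genes in each PAL and control library, with the mean and SD beside the points. CHAC1, ATF3, PPP1R15A, SESN2, DDIT3 and CEBPB are separated by wide gaps, ATF4 (123.9 to 137.1 in PAL, 137.7 to 151.4 in control) by a narrow one, and TRIB3 and DDIT4 overlap.

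Among the transcription factors, ATF4, the factor translated when eIF2 is phosphorylated (ENSG00000128272, chromosome 22, 39519695 to 39522685, hg38), had 136.5, 137.1 and 123.9 FPKM in PAL replicates 1, 2 and 3, against 142.8, 137.7 and 151.4 FPKM in control replicates 1, 2 and 3. The groups did not overlap, but PAL replicate 2 and control replicate 2 differed by less than the spread within either group. The fold change was -0.12 ± 0.051 (SE) with a 95% interval of -0.24 to 0.00026, and it did not pass in limma (unadjusted p = 0.0504, adjusted p = 0.127). It passed with voom, limma's weighted model of read counts, on the recovered reads (adjusted p = 0.0315, range 0.0315 to 0.699 over 17 alternatives). ATF4 was abundant in both groups, ranking 277 of the tested genes by its control level.

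ATF3, a stress-induced member of the same family and a target of ATF4 (ENSG00000162772, chromosome 1, 212565334 to 212620777), had 1.965, 1.498 and 2.674 FPKM in PAL replicates 1, 2 and 3, against 30.5, 33.7 and 33.9 FPKM in control replicates 1, 2 and 3. PAL libraries were all near the filter of 1 FPKM and control libraries all above 30 FPKM. The mean was 16.0-fold lower in PAL, and the log2 fold change was -3.48 ± 0.13 (SE, limma adjusted p = 1.44e-05). By fold change it ranked 9 of the tested genes, counted from the most negative. The PAL values rested on 101 to 199 reads per library.

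DDIT3, whose product CHOP drives late stress and death programs (ENSG00000175197, chromosome 12, 57516588 to 57521737), had 10.8, 10.8 and 10.1 FPKM in PAL replicates 1, 2 and 3, against 23.1, 24.5 and 29.1 FPKM in control replicates 1, 2 and 3. The mean was 2.43-fold lower in PAL and the log2 fold change was -1.20 ± 0.082 (SE, limma adjusted p = 0.000142). The spread was wider in control, with a coefficient of variation of 3.95% in PAL and 12.5% in control. Of its exon bases, 31.6% also lie in exons of MARS and MBD6 on the opposite strand and 8.03% in AC022506.1 on its own strand. MARS, a tRNA synthetase, averaged 42.5 FPKM in PAL and 43.5 FPKM in control and did not pass (limma adjusted p = 0.363), MBD6 was higher in PAL (0.21, limma adjusted p = 0.0184), and AC022506.1 was listed at 0 in every library. Their part in the DDIT3 value was not tested.

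CEBPB, a C/EBP factor that pairs with ATF4 and with CHOP (ENSG00000172216, chromosome 20, 50190734 to 50192689), had 30.3, 30.9 and 32.6 FPKM in PAL replicates 1, 2 and 3, against 51.6, 51.6 and 52.1 FPKM in control replicates 1, 2 and 3. The groups stood far apart, with a coefficient of variation of 3.78% in PAL and 0.569% in control. The mean was 1.66-fold lower in PAL and the log2 fold change was -0.71 ± 0.032 (SE, limma adjusted p = 2.89e-05). Of its exon bases, 11.8% lie in the antisense gene CEBPB-AS1, which had 28 to 40 reads in PAL libraries and 28 to 57 in control libraries.

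Among the effectors, CHAC1, which degrades glutathione (ENSG00000128965, chromosome 15, 40952962 to 40956519), had 3.14, 3.17 and 3.19 FPKM in PAL replicates 1, 2 and 3, against 18.5, 17.8 and 19.6 FPKM in control replicates 1, 2 and 3. Its PAL libraries were nearly identical, with a coefficient of variation of 0.765% at 109 to 121 reads each. Counting alone would be expected to spread so few reads more widely, so the SE below may be too small. The mean was 5.89-fold lower in PAL and the log2 fold change was -2.24 ± 0.044 (SE, limma adjusted p = 1.21e-06). The stretch with the composite core shown above lies before the RefSeq start but inside an exon of the GENCODE annotation, whose gene start is further upstream.

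PPP1R15A, or GADD34, which recruits protein phosphatase 1 to eIF2 (ENSG00000087074, chromosome 19, 48872392 to 48876057), had 36.5, 39.9 and 46.4 FPKM in PAL replicates 1, 2 and 3, against 197.9, 197.2 and 185.3 FPKM in control replicates 1, 2 and 3. In control it was the most abundant of the 10 transcripts. The mean was 4.72-fold lower in PAL and the log2 fold change was -2.22 ± 0.081 (SE, limma adjusted p = 1.30e-05). By fold change CHAC1 and PPP1R15A ranked 26 and 27 of the tested genes, counted from the most negative.

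SESN2, a sestrin that restrains the growth kinase mTORC1 (ENSG00000130766, chromosome 1, 28259527 to 28282491), had 4.90, 5.33 and 5.41 FPKM in PAL replicates 1, 2 and 3, against 14.9, 15.8 and 18.6 FPKM in control replicates 1, 2 and 3. The groups did not overlap, and the mean was 3.15-fold lower in PAL. The log2 fold change was -1.48 ± 0.080 (SE, limma adjusted p = 5.30e-05).

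DDIT4, or REDD1, another inhibitor of mTORC1 signalling (ENSG00000168209, chromosome 10, 72273920 to 72276036), had 63.5, 66.2 and 74.2 FPKM in PAL replicates 1, 2 and 3, against 109.0, 93.1 and 65.8 FPKM in control replicates 1, 2 and 3. Control replicate 3 lay within the PAL range, and the coefficient of variation was 8.25% in PAL and 24.5% in control. The fold change was -0.36 ± 0.17 (SE) with a 95% interval of -0.76 to 0.040, and it did not pass in limma (adjusted p = 0.162). It passed without control replicate 3 (-0.56, adjusted p = 0.00968), without both libraries numbered 3 (-0.63, adjusted p = 0.0103) and with voom (-0.37, adjusted p = 0.0286). Its adjusted p ran from 0.00968 to 0.366 across 17 alternatives. The antisense gene DDIT4-AS1 lies in 41.2% of its exon bases, and had 120 to 178 reads in PAL libraries and 119 to 165 in control libraries, against 2275 to 2815 and 2097 to 3550 for DDIT4 in the same order.

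TRIB3, a pseudokinase induced by ATF4 with CHOP that binds AKT (ENSG00000101255, chromosome 20, 362835 to 397559), had 20.8, 19.7 and 19.9 FPKM in PAL replicates 1, 2 and 3, against 22.7, 20.6 and 23.7 FPKM in control replicates 1, 2 and 3. The groups overlapped, since PAL replicate 1 lay above control replicate 2. The fold change was -0.14 ± 0.053 (SE) with a 95% interval of -0.27 to -0.015, and it did not pass in limma (unadjusted p = 0.0332, adjusted p = 0.0952). It passed without control replicate 2 (-0.19, adjusted p = 0.0294) and with voom (-0.15, adjusted p = 0.0438). Across the 17 alternatives it ran from 0.0294 to 0.429.

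ASNS, asparagine synthetase (ENSG00000070669, chromosome 7, 97852118 to 97872542), had 0.268, 0.202 and 0.280 FPKM in PAL replicates 1, 2 and 3, against 0.539, 0.409 and 0.391 FPKM in control replicates 1, 2 and 3. All PAL libraries were below all control libraries, but on 15 to 23 reads in PAL and 27 to 38 in control. With no filter on low values the log2 fold change was -0.21 ± 0.064 (SE) and limma gave an adjusted p of 0.126, short of the threshold. In the GENCODE 29 annotation 44.6% of its exon bases are shared with AC079781.5, a transcript of the same strand that runs through the gene and held 0 to 3 reads in PAL and 0 to 4 in control. The labels and file headers do not state how reads in shared exons were assigned, and the part of this overlap in the low ASNS level was not tested.

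**Figure D2:**
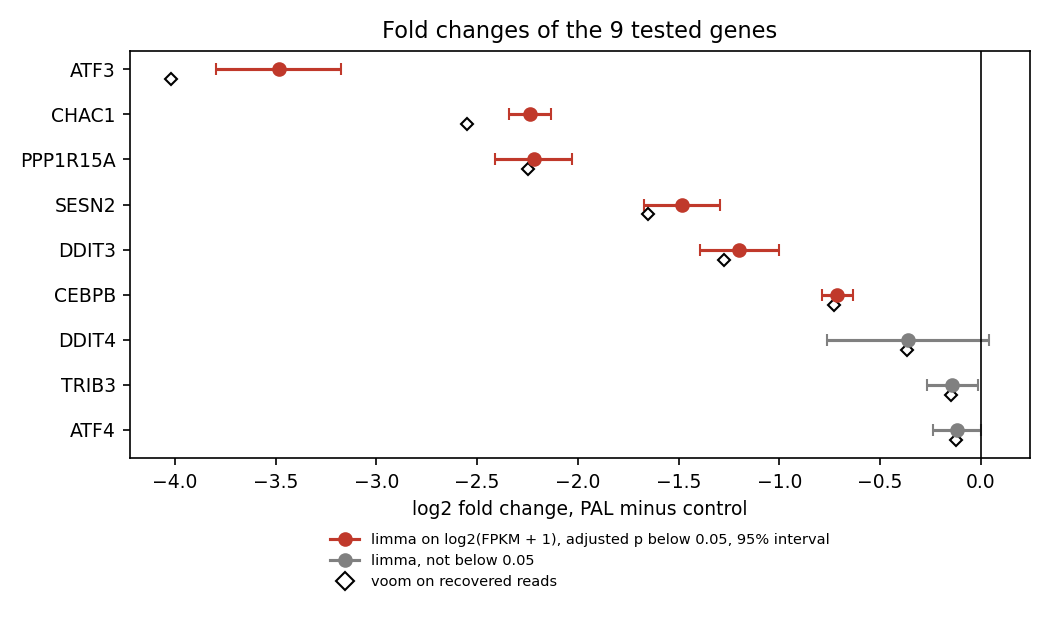
Log2 fold changes (PAL minus control) of the 9 tested genes with 95% intervals from limma, and voom estimates on recovered reads as diamonds. ATF3 at -3.48 and CHAC1 at -2.24 lie at one end, and DDIT4, TRIB3 and ATF4 near 0 at the other, with the voom values of ATF3 and CHAC1 further from 0 at -4.02 and -2.55.

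Set by role, 3 of the 4 factors fell with a median log2 fold change of -0.96, and 3 of the 5 tested effectors fell with a median of -1.48, while the median over all tested genes was 0.0043. Each role thus held strong falls beside a gene near 0: ATF3 at -3.48 and ATF4 at -0.12 among the factors, CHAC1 at -2.24 and TRIB3 at -0.14 among the effectors. With voom on the recovered reads 9 of the 9 passed as lower, against 18.1% of all tested genes. The 6 genes that fell passed under each of the 17 alternatives tried.

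**Figure D3:**
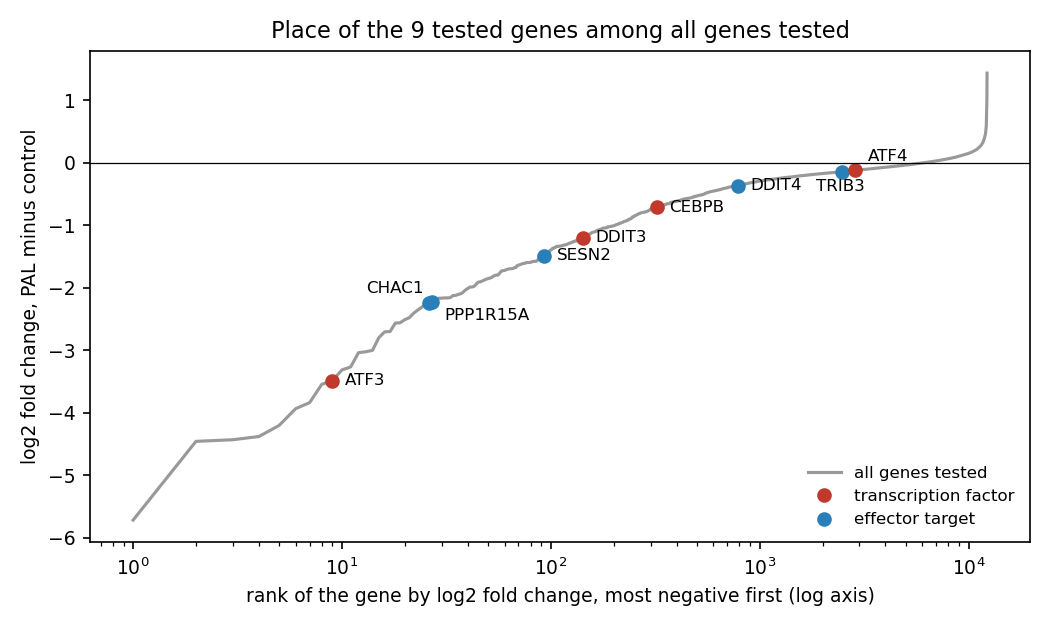
All tested genes ordered by log2 fold change (rank on a log axis), with the 4 factors and the 5 tested effectors marked. ATF3 stands at rank 9 from the most negative, CHAC1 at 26 and PPP1R15A at 27, whereas TRIB3 and ATF4 stand at 2483 and 2857.

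The order of levels in FPKM, a scale per gene length, changed with the group. In PAL it ran ATF4, DDIT4, PPP1R15A, CEBPB, TRIB3, DDIT3, SESN2, CHAC1, ATF3 and ASNS, with no overlap between neighbours. In control it ran PPP1R15A, ATF4, DDIT4, CEBPB, ATF3, DDIT3, TRIB3, CHAC1, SESN2 and ASNS, where DDIT3 overlapped TRIB3 and CHAC1 overlapped SESN2. ATF3 thus stood at place 9 in PAL and at place 5 in control, and PPP1R15A at place 3 in PAL and at place 1 in control. The libraries numbered 3 were each the highest of their group for 7 of the 10 genes, though not for the same 7. PAL replicate 3 was the lowest PAL library for ATF4 and DDIT3. Control replicate 3 was the lowest control library for ASNS, DDIT4 and PPP1R15A.

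Set against ATF4 mRNA in the same library, the other transcripts differed between the groups to different degrees. Since ATF4 mRNA itself differed little, ratios to it mostly restate the fold changes given above. The ratio of CHAC1 FPKM to ATF4 FPKM was 0.0230, 0.0231 and 0.0258 in PAL replicates 1, 2 and 3, against 0.130, 0.130 and 0.130 in control replicates 1, 2 and 3. The ratio of PPP1R15A to ATF4 ranged from 0.268 to 0.375 in PAL and from 1.22 to 1.43 in control. The ratio of DDIT3 to ATF4 averaged 0.0795 ± 0.0014 in PAL and 0.177 ± 0.016 in control, and that of ATF3 to ATF4 0.0156 ± 0.0054 and 0.227 ± 0.016 in the same order (SD, n = 3 each). By contrast the ratio of TRIB3 to ATF4 averaged 0.152 ± 0.0084 in PAL and 0.155 ± 0.0047 in control, and its groups overlapped. CHAC1 and TRIB3, both known targets of ATF4 and CHOP, differed in their change. The ratio of CHAC1 to TRIB3 was 0.151 to 0.161 in PAL and 0.818 to 0.865 in control. Relative to DDIT3, TRIB3 stood higher in PAL, at 1.83 to 1.98, than in control, at 0.813 to 0.983. These ratios are descriptions without a test.

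**Figure D4:**
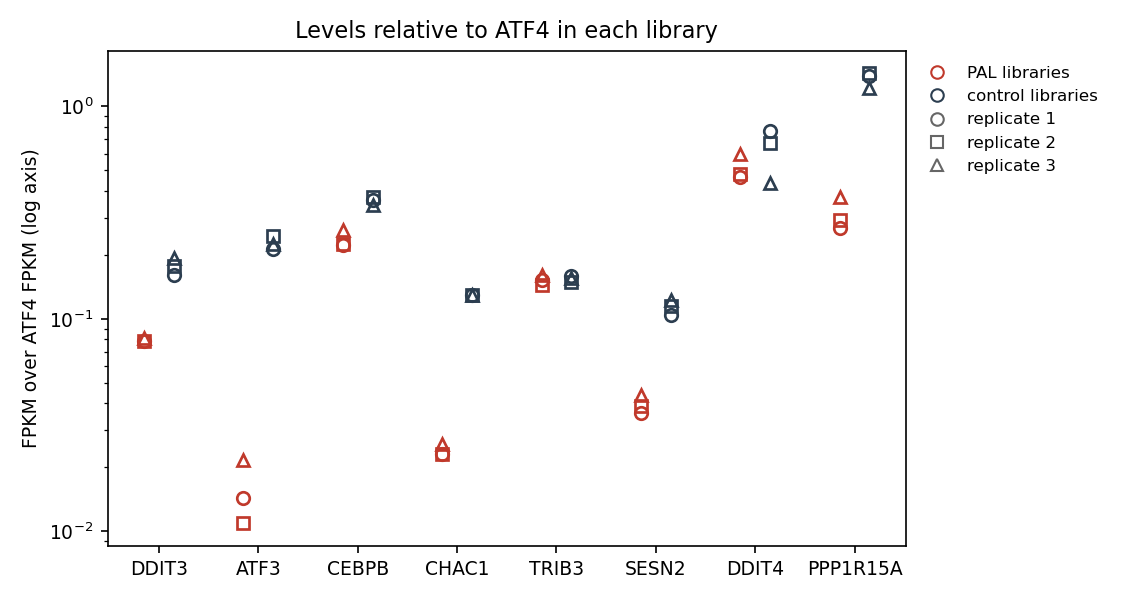
FPKM of 8 genes divided by ATF4 FPKM in the same library (log axis), PAL beside control. TRIB3 (0.144 to 0.160 in PAL, 0.1498 to 0.159 in control) and DDIT4 overlap between groups, and the other genes are lower in every PAL library.

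Upstream of ATF4, transcripts of the eIF2 kinases and their regulators were lower in 4 of 9 cases, with a list median of -0.097. This compares with 14.5% called lower over all tested genes. EIF2AK3, the kinase PERK of the endoplasmic reticulum, averaged 2.18 ± 0.069 FPKM in PAL and 4.74 ± 0.78 FPKM in control (limma log2 fold change -0.85, adjusted p = 0.00144), and DNAJC3, a co-chaperone that inhibits such kinases, 14.3 ± 0.33 and 18.8 ± 1.8 FPKM in the same order (-0.37, adjusted p = 0.00761). The other two that passed, EIF2AK2 (PKR) at -0.13 and EIF2AK4 (GCN2) at -0.16, were named after their values were seen, and the count was 2 without PAL replicate 2, control replicate 1 or control replicate 2. As TPM and with plain read totals 2 of the 9 were lower and 1 higher. EIF2AK1, the heme-regulated kinase, had 22.0 FPKM in PAL and 22.8 FPKM in control. Among 12 subunits of eIF2, its exchange factor eIF2B and the eIF2 phosphatase, 2 fell, with a list median of -0.027, against 14.5% called lower over all tested genes, so that the count was near the background. PPP1R15B, the constitutive counterpart of PPP1R15A, averaged 21.0 ± 0.52 FPKM in PAL and 31.6 ± 3.4 FPKM in control (-0.56, adjusted p = 0.00224). The catalytic subunit PPP1CC fell by 0.13 on the log2 scale (adjusted p = 0.0384), a call that held in 7 of 17 alternatives. With plain read totals 1 of the 12 was lower and 3 were higher, and the count was 1 without PAL replicate 1 or 2 or control replicate 1 or 2.

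Of 15 tested bZIP partners and relatives of the factors, 4 fell, with a list median of -0.054. Over all tested genes 14.5% were called lower and the median was 0.0043. NFIL3, a bZIP repressor, averaged 2.86 ± 0.66 FPKM in PAL and 15.4 ± 1.3 FPKM in control (limma log2 fold change -2.09, adjusted p = 8.34e-05), and XBP1, the factor of the IRE1 arm of the unfolded protein response, 12.6 ± 0.13 and 32.2 ± 4.5 FPKM in the same order (-1.28, adjusted p = 0.000133). CEBPD and CEBPG, C/EBP relatives of CEBPB named after their values were seen, fell by 0.94 and 0.44 on the log2 scale. ATF5, itself controlled through eIF2, had 13.0 FPKM in PAL and 13.6 FPKM in control and did not pass (adjusted p = 0.461). With plain read totals 4 of this list were lower and 3 higher. Among 5 tested paralogs of the effectors, TRIB1 averaged 5.76 ± 0.76 FPKM in PAL and 15.1 ± 2.0 FPKM in control (-1.25, adjusted p = 0.000512), PPP1R15B fell as given above, and CHAC2, TRIB2 and SESN1 did not pass. TRIB1 thus fell where its relative TRIB3 did not pass, a difference that was not itself tested.

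Other known targets of ATF4 were described by class. Of 18 amino acid transporters and enzymes, 7 fell and 3 rose, with a list median of -0.092. Over all tested genes 14.5% were called lower and 11.4% higher. CTH, which makes cysteine, averaged 2.21 ± 0.33 FPKM in PAL and 5.59 ± 0.43 FPKM in control (limma log2 fold change -1.04, adjusted p = 0.000423), and SLC38A2, a neutral amino acid transporter, fell by 0.45 (adjusted p = 0.000222). SLC7A5, the large neutral amino acid transporter, rose by 0.22 (adjusted p = 0.0103), and PCK2, a mitochondrial enzyme of gluconeogenesis, by 0.25 (adjusted p = 0.0226), a call that held in 11 of 17 alternatives. The third rise was SLC7A1, a cationic amino acid transporter named after its values were seen, at 0.22. SLC7A11, the cystine transporter often used to read this pathway, had 18.2 FPKM in PAL and 17.7 FPKM in control and did not pass (adjusted p = 0.377). The count of changed genes was 6 without PAL replicate 1, and with plain read totals 5 were lower and 4 higher.

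Of 12 cytosolic tRNA synthetases and the tRNA exporter XPOT, 13 genes in all, 6 fell by small amounts, with a list median of -0.12. For this list and the next, the shares over all tested genes were 14.5% called lower and 11.4% higher. EPRS and TARS fell by 0.25 and 0.20 in log2 terms (limma adjusted p = 0.000519 and 0.00136). Only 2 of the 13 were lower as TPM, after quantile normalization or with plain read totals, and 3 without PAL replicate 2 or control replicate 1. Of 9 tested targets with secreted, signalling and other products, 5 fell and 1 rose, with a list median of -0.36. HERPUD1, of endoplasmic reticulum protein disposal, averaged 9.60 ± 1.2 FPKM in PAL and 48.4 ± 6.5 FPKM in control (-2.22, adjusted p = 4.09e-05), and VEGFA, the angiogenic growth factor, 4.04 ± 0.37 and 9.64 ± 0.40 FPKM in the same order (-1.08, adjusted p = 7.4e-05). EIF4EBP1, a translation repressor, rose by 0.21 (adjusted p = 0.00247).

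**Figure D5:**
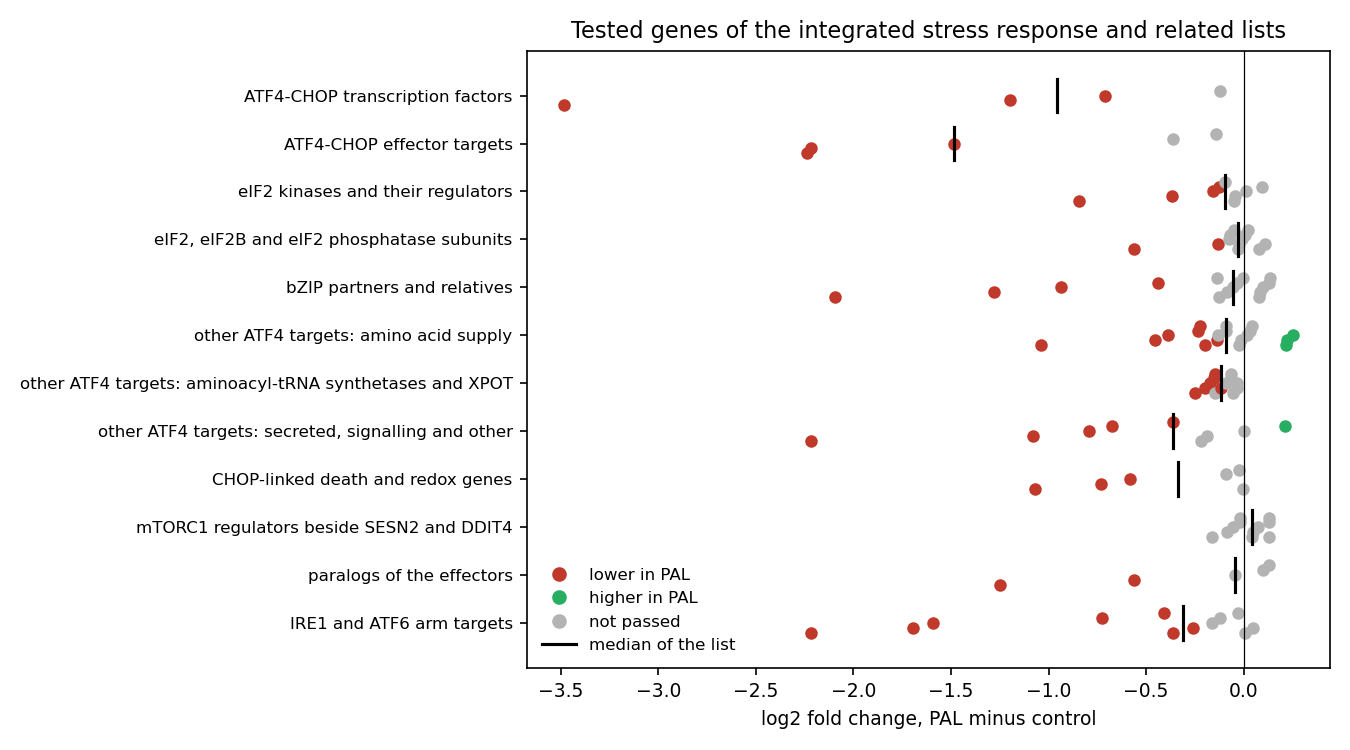
Log2 fold changes (PAL minus control) of the tested genes of each list, with the list median as a vertical line. The medians of the factors and effectors, at -0.96 and -1.48, lie left of those of all other lists, which run from -0.36 to 0.041.

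Downstream, 3 of 6 death and redox genes linked to CHOP fell, with a list median of -0.34, against 14.5% called lower over all tested genes. Only 1 fell when only genes averaging 5 FPKM or more were tested, a filter that left out BCL2L11 and BBC3, both described below. PMAIP1 (NOXA), a death activator of the BCL2 family, averaged 21.5 ± 2.2 FPKM in PAL and 46.1 ± 0.14 FPKM in control (limma log2 fold change -1.07, adjusted p = 8.91e-05), and BCL2L11 (BIM), another, 1.16 ± 0.033 and 2.60 ± 0.37 FPKM in the same order (-0.73, adjusted p = 0.00187). The third was BBC3 (PUMA), named after its values were seen, at -0.58, whereas the CHOP targets ERO1A and TNFRSF10B had fold changes of -0.0030 and -0.023 that did not pass. Of 11 tested regulators of mTORC1 other than SESN2 and DDIT4, 0 were called with limma, against 25.9% of all tested genes. An unadjusted limma p below 0.05 was reached by 2 of the 11. With voom 1 of the 11 was called, and with plain read totals 5 were called higher. RHEB, which activates mTORC1, had 35.7 FPKM in PAL and 37.1 FPKM in control, and AKT1S1, an inhibitory subunit, 26.1 and 25.3 FPKM in the same order. The sign of RHEB turned positive as TPM and with plain read totals.

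In the arms of the unfolded protein response that do not run through eIF2, 7 of 12 targets of IRE1 and ATF6 fell. The list median was -0.31, and 14.5% of all tested genes were called lower. DNAJB9, a co-chaperone, averaged 3.06 ± 0.30 FPKM in PAL and 12.2 ± 1.5 FPKM in control (limma log2 fold change -1.69, adjusted p = 5.65e-05), and HERPUD1 is also on this list. The count stayed at 7 lower under each of TPM, quantile normalization and plain read totals. It was 6 with no filter and without PAL replicate 1 or 2, 8 with the replicate block and 9 with voom.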

How the data were processed

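Values for 6 libraries of poly-A RNA were taken as deposited FPKM, with gene length, per the file headers; the build hg38 is named in the submitters' processing notes. The labels and file headers name no aligner, counting tool or strand setting. Groups and replicate numbers came from the sample titles. FPKM times gene length gave whole reads within 0.01 for 100% of values above 0. The deposited scaling used a library size of 1.04 to 1.05 times the assigned reads in PAL and 0.980 to 0.984 times in control. Genes at 1 FPKM or more in at least 3 libraries were fitted with limma 3.58.1 (R 4.3.3) on log2(FPKM + 1) with a trended variance, two-sided, with Benjamini-Hochberg adjustment over 12258 genes and a threshold of 0.05. The fit has 4 residual degrees of freedom and was tested on simulated data. Intervals and read counts cover the spread of these libraries and counting only.

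The members and the 10 further gene lists (130 of 130 entries matched, members included) were chosen with earlier results of these data known. Named genes are all members and, per list, up to 2 rises and 2 falls that passed, or the 2 highest where none passed. EIF2AK1, ATF5, SLC7A11, ERO1A, TNFRSF10B, TRIB2, CHAC2 and SESN1, and the genes marked so in the text, were named after their values were seen. The 17 alternatives cover pseudocounts of 0.5 and 0.1, filters, scaling, variance trend, a replicate block, voom on recovered reads, and libraries left out. Taken over many genes together, read counts of libraries of the same group differed by more than counting noise (chi-square of 1.97 to 4.00 per degree of freedom). Promoters and start sites are those of RefSeq, and exon overlaps those of GENCODE 29. Figures were drawn with matplotlib 3.10.9. One further marker list is not reported here.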

Additional observations from a re-analysis of the deposited data

How the results depend on the processing

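ATF3, DDIT3, CEBPB, CHAC1, SESN2 and PPP1R15A kept their direction and passed in all 17 alternatives. With voom, ATF4 (-0.12), TRIB3 (-0.15) and DDIT4 (-0.37) passed as well, and DDIT4 passed at -0.63 without both libraries numbered 3. With 1 library left out, ATF4 ranged from -0.15 to -0.072, TRIB3 from -0.19 to -0.098 and DDIT4 from -0.56 to -0.20. The count of all changed genes was 3179, against 2103 with no filter and 1855 to 2789 with 1 library left out (1972 without PAL replicate 1, 1855 without PAL replicate 2, 2051 without control replicate 2). With no filter, 1 eIF2 subunit was called. As TPM, 1 mTORC1 regulator and 2 tRNA synthetases were called, and after quantile normalization 2 synthetases. With plain read totals the counts were 7 bZIP partners, 4 eIF2 subunits, 5 mTORC1 regulators and 2 synthetases. With no variance trend they were 1 eIF2 subunit and 3 synthetases, and with voom 1 mTORC1 regulator. When only genes averaging 5 FPKM or more were tested, 1 CHOP-linked gene was called, and BCL2L11 and BBC3 were left out by the filter. With 1 library left out, counts ranged from 2 to 3 for eIF2 kinases, 1 to 3 for eIF2 subunits, 6 to 9 for amino acid genes and 3 to 6 for synthetases. RHEB turned to 0.016 as TPM and 0.030 with plain read totals. The scalings moved the median of all genes by 0.072 (TPM) and 0.075 (plain totals). Apart from genes that a filter left out, the cause of each change was not tested.

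Replicate numbers in the labels are shared, but the labels do not say whether same-numbered libraries were paired. Deviations of same-numbered libraries from their group means correlated at -0.045 to 0.027, and those of differently numbered libraries at -0.041 to 0.061. With 3 libraries per group these values cannot settle whether there was a pairing. With the replicate block 2131 genes were called, 6 of the 9 members, 2 eIF2 kinases and 1 eIF2 subunit, and no member's call changed. ASNS rested on 15 to 38 reads per library.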
